A study of Mus musculus with 3 samples.

Results

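Mast cells and cells of the monocyte and macrophage lineage were described in single-cell RNA libraries of the mouse mandibular condyle, the jaw side of the temporomandibular joint. A cell counted as mast with at least 2 unique molecular identifiers (UMIs, counted molecules) each of Cpa3 and Cma1, and as macrophage with at least 1 UMI each of at least 2 of Csf1r, Fcer1g, C1qa and Cx3cr1. Cells with 50 or more UMIs of S100a8 plus S100a9, or 3 or more of Col9a1, per 10000 UMIs were left out of both arms. Cells with 500 or more genes and no more than 10% mitochondrial UMIs were kept, and these rules gave 187 of 16589 kept cells, with 7 in the mast arm and 180 in the macrophage arm. The mast arm held 6 cells of the E16.5 library, 1 of the P0 library and 0 of the 13w library, and the macrophage arm held 79, 14 and 87 cells. Members were thus chosen by the UMIs of these genes in the same libraries.

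The libraries came from wild-type C57BL6 mice at embryonic day 16.5 (E16.5), on the day of birth (P0, postnatal day 0) and at 13 weeks of age (13w). Condyles of 7 to 20 mice were pooled within an age, digested with collagenase and dispase for 90 minutes, passed through a 40 µm strainer and sorted for live cells (Calcein positive, DAPI negative). Each age is 1 library, so no difference between ages could be tested. Intervals given below are exact 95% intervals for counting error only and hold nothing of the spread between mice or libraries. Kept cells numbered 4562, 3999 and 8028 at E16.5, P0 and 13w, with median depths of 17402, 17954 and 11010.0 UMIs. Values given as 3 stand in the order E16.5, P0 and 13w throughout. Barcodes shared between pairs of libraries numbered 10 to 15, and none belonged to a member.

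Mast cells arise from blood-forming progenitors, settle in connective tissue and store proteases, histamine and the proteoglycan serglycin in granules that are released on activation. Macrophages live on signals through the receptor Csf1r, clear dying cells and produce the complement component C1q. Osteoclasts form by fusion of cells of the same lineage, acidify a sealed zone on the mineralised surface and digest its collagen, and in a growing condyle they open the way for bone to replace cartilage. Monocytes leave the marrow through the blood and can give rise to macrophages, dendritic cells and osteoclasts.

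The mast arm carried the genes of its label at high levels. Cpa3, the mast cell carboxypeptidase, and Cma1, a chymase, chose these cells, and their values are given as a description with no test. The 250 bases before the start of 4 genes of this arm are shown because the genes were read together in the same cells. The sequences are RefSeq promoter windows of build GRCm38.p6 on the minus strand, written 5′ to 3′, at chr3:20242182-20242431 for Cpa3, chr14:55944676-55944925 for Cma1, chr14:56062311-56062560 for Mcpt4 and chr2:126618679-126618928 for Hdc. Capitals mark AGATAA or AGATAG, and also TGATAA or TGATAG, letters bound by GATA factors, and CANNTG, letters bound by basic helix-loop-helix factors, each on either strand and with no overlap between them.
Cpa3: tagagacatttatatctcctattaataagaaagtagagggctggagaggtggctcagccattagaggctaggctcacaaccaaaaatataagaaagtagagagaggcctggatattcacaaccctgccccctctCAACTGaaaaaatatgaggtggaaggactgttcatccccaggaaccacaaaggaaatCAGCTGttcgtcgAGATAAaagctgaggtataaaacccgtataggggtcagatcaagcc
Cma1: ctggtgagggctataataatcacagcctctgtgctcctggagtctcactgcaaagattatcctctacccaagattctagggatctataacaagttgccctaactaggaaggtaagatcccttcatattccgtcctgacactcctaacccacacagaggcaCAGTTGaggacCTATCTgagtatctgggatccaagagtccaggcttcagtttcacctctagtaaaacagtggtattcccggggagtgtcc
Mcpt4: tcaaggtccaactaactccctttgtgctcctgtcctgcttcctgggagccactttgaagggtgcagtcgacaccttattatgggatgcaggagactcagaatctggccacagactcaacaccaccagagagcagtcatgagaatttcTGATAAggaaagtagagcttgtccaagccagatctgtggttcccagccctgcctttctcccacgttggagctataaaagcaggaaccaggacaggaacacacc
Hdc: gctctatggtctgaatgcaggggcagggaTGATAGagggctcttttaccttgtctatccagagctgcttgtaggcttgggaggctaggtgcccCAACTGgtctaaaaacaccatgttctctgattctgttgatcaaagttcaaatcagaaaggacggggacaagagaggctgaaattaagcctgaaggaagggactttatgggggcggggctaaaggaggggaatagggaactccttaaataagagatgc
Each of the 4 windows held 1 GATA hexamer, and 3 of them held CANNTG. Of all 32851 promoter windows of this length, 26.5% held such a GATA hexamer and 66.2% held CANNTG, so a match is a description and not a site.

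Cpa3 reached 68.6 to 237 UMIs per 10000 in the 6 cells at E16.5, with a median of 134, and 284 in the P0 cell. Cma1 ranged from 1.18 to 369 with a median of 285 at E16.5, and was at 697 in the P0 cell. All 7 cells held both genes by the rule, and 1 cell at E16.5 stood near its edge with 2 Cma1 UMIs beside 130 Cpa3 UMIs. The same cell held no UMI of Tpsb2 or Mcpt4. The next lowest cell had 339 Cma1 UMIs.

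Granule genes that the rule did not use were read in most of the other mast cells. Tpsb2, a tryptase, was read in 5 of 6 cells at E16.5, at up to 157 UMIs per 10000, and was at 271 in the P0 cell. Mcpt4, another chymase of connective tissue mast cells, was read in 3 of 6 cells at E16.5, at up to 147, and not in the P0 cell. The chymase genes on chromosome 14 and the tryptase genes are related in sequence within their families, and the split of reads between members was not tested. Serpinb1a, an inhibitor of granule proteases, was read in 5 of 6 cells at E16.5, at up to 51.2, and was at 98.2 in the P0 cell. Srgn, the serglycin core protein that packs the granule, was in all 7 cells, at 24.4 to 76.8 at E16.5 and 83.6 at P0. Cpa3, Cma1, Mcpt4, Tpsb2, Hdc and Srgn together took 5.03% of all UMIs of the E16.5 mast cells and 14.0% of those of the P0 cell.

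**Figure D1:**
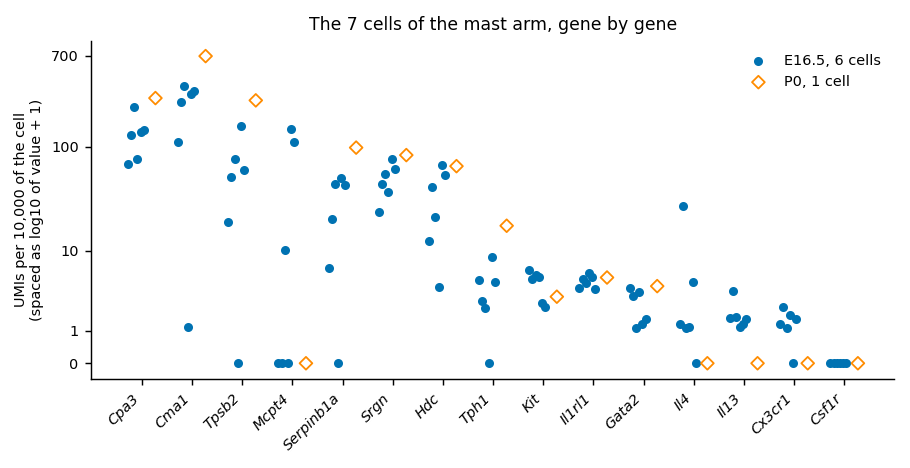
UMIs per 10000 of each cell for 15 genes, on a scale spaced as log10 of the value plus 1, with 1 point per E16.5 cell (filled) and the single P0 cell (open diamond). The proteases spread widely between cells, Csf1r lies at 0 in all 7 cells, and Cx3cr1 is above 0 in 5 of the 6 E16.5 cells and at 0 in the P0 cell.

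Genes for small mediators were present as well. Hdc, which makes histamine, was in all 7 cells, at 4.13 to 67.0 UMIs per 10000 at E16.5 and 65.8 at P0. Tph1, the first enzyme of serotonin synthesis, was in 5 of 6 cells at E16.5 and at 17.8 per 10000 in the P0 cell. Cyp11a1, which starts steroid synthesis from cholesterol, was read in all 7 cells, with 38 UMIs over the 6 E16.5 cells and 12 in the P0 cell. Ptgs1 had 0 UMIs in all 7 cells, and Ptgs2, the other prostaglandin synthase, had 1 UMI in 1 E16.5 cell.

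Receptors followed the mast pattern with gaps. Kit, the receptor of stem cell factor, was in all 7 cells at 2.31 to 6.27 UMIs per 10000 at E16.5 and 3.13 at P0. The 2 E16.5 cells with the most Mcpt4, 224 and 145 UMIs, also had the highest Hdc and the lowest Kit levels of the 6, a pattern picked out after the values were seen. Il1rl1, the receptor of the alarmin Il33, was in all 7 cells at 3.86 to 5.90 at E16.5 and 5.22 at P0. The IgE receptor was read in parts, with Fcer1g in all 7 cells, Ms4a2 in 4 of 6 cells at E16.5 and not at P0, and Fcer1a at 0 UMIs in every mast cell. Mrgprb2, a receptor of connective tissue mast cells for basic peptides, had 2 UMIs in the P0 cell and 0 at E16.5. Gata2, a transcription factor of the mast lineage, was in all 7 cells.

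The cytokine genes Il13, Il4 and Ccl1 were read at E16.5 and not in the P0 cell. Il13 was in 6 of 6 cells at E16.5 with 22 UMIs in all. Il4 was in 5 of 6 cells with 75 UMIs, and 1 cell carried 60 of them. Ccl1, a chemokine, was in 3 of 6 cells with 36 UMIs, 30 of them in 1 cell. The P0 cell had 0 UMIs of each, at a depth of 9574 UMIs, where a count of 0 allows up to 3 UMIs.

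Of 10 macrophage and monocyte markers, 8 were missing from the mast arm at E16.5, and the macrophage rule still caught some of it. Of the 6 mast cells at E16.5, 5 also met the macrophage rule through Fcer1g and Cx3cr1 and were kept in the mast arm alone. Cx3cr1 ranged from 0 to 2.30 UMIs per 10000 at E16.5. Csf1r, C1qa, C1qb, C1qc, Adgre1, Mrc1, Lyz2 and Aif1 were at 0 in both mast pools. Chondrocyte markers summed to 304 CPM (UMIs per 1000000 UMIs of the pool) in the mast arm at E16.5, against 10538 CPM in the other kept cells. Most of the mast sum was Hapln1, at 252 CPM with 29 UMIs in 4 of 6 cells, while Col2a1 was at 26.1 CPM. Of the 6 cells, 1 was among those with the highest doublet scores, a set fixed by an assumed rate at 3.81% of the kept cells at E16.5.

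No mast cell was found at 13w. The count of 0 among 8028 kept cells allows a share of up to 0.0374% by a limit of 3 counts, and the exact interval of 0 reaches up to 0.0459%, against shares of 0.132% (0.0483 to 0.286) at E16.5 and 0.0250% (0.000633 to 0.139) at P0. At 13w, 6 kept cells had at least 2 Cpa3 UMIs and none of them had a Cma1 UMI. Of these 6 cells, 3 carried Mcpt8 and Prss34, proteases of basophils, with 262 and 323, 185 and 183, and 83 and 72 UMIs. The cell with 83 Mcpt8 UMIs fell in the macrophage arm. Prss34 was also read in the mast arm, with 31 UMIs in 5 of 6 cells at E16.5 and 19 in the P0 cell. Mcpt8 was low there, with 5 UMIs in 2 of 6 cells at E16.5 and 1 in the P0 cell. The exact interval at 13w ends just below the one at E16.5, while the interval at P0 overlaps both. Without the E16.5 cell that held 2 Cma1 UMIs, the intervals at E16.5 and 13w overlap, so their separation rests on 1 cell.

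**Figure D2:**
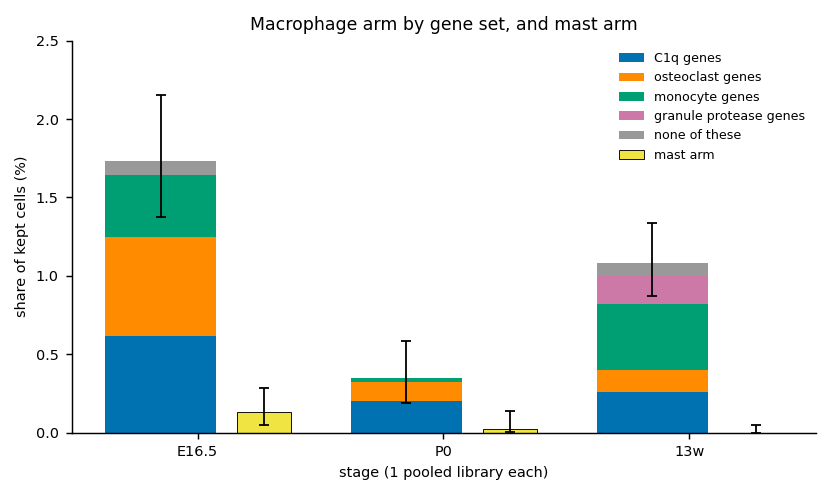
Share of kept cells (%) in the macrophage arm, stacked by the gene set that each cell carried, and beside it in the mast arm, for the 3 libraries. Bars on top are exact 95% intervals of the whole arm, and the macrophage arm stood at 1.73%, 0.350% and 1.08% of kept cells at E16.5, P0 and 13w.

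Of kept cells, 1.73% fell in the macrophage arm in the E16.5 library, with an interval of 1.37 to 2.15. The share was 0.350% in the P0 library (0.192 to 0.587) and 1.08% in the 13w library (0.869 to 1.34). By this cut of 2 of the 4 genes, the interval at P0 lay below both others, and those at E16.5 and 13w did not overlap. With at least 3 of the 4 genes required, the interval at 13w overlapped both others, so the separation depends on the cut. The rule needs only 1 UMI of a gene, and median depth in the arm was 20192, 12680 and 10632 UMIs. The part of depth in the shares was not tested. In the rule, 42, 6 and 45 cells of the arm held exactly 2 of the 4 genes, while 129, 51 and 147 cells outside held only 1 of them. Cells that met the marker rule but passed the S100a8 and S100a9 limit numbered 24, 1 and 15, and those over the Col9a1 limit 4, 2 and 4. The highest S100a8 plus S100a9 level inside the members was 34.1, 24.0 and 38.7 per 10000, and the lowest outside was 53.1, 717 and 472. For Col9a1 the highest inside was 1.34, 2.06 and 2.35 and the lowest outside 6.25, 3.34 and 3.35. The 4 genes of the rule are among the 10 macrophage and monocyte markers, so the marker levels follow in part from the choice and are a description. All 10 were detected in the arm in every library, with summed levels of 5515, 7898 and 8967 CPM. The other kept cells were at 77.5, 4.93 and 155 CPM.

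The data go partly against the label, because the arm held cells that led with genes of other members of the lineage. For description it was divided after the values had been seen, in this order, into cells with at least 3 UMIs of C1qb plus C1qc, cells with at least 3 of 6 osteoclast genes (Acp5, Mmp9, Dcstamp, Ocstamp, Atp6v0d2, Oscar), cells with at least 4 UMIs of Mpo plus Elane, and cells with at least 1 UMI of Ccr2 or Ly6c2. Cells with C1q genes numbered 28, 8 and 21 at E16.5, P0 and 13w. Cells with osteoclast genes numbered 29, 5 and 11. Cells with the granule protease genes Mpo and Elane numbered 0, 0 and 14, and cells with monocyte genes 18, 1 and 34. Another 4, 0 and 7 cells met none of these, and 25 of the 180 met more than 1. No test was made between these groups, and a gene that sets a group is not a finding about it.

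The limits cut the arm unevenly. C1qb plus C1qc had 0 UMIs in 47, 6 and 64 cells, 1 to 5 in 7, 0 and 3 cells, and 6 or more in 25, 8 and 20 cells, so few cells lay near the C1q limit. Of the 6 osteoclast genes 0 were read in 31, 8 and 59 cells, 1 or 2 in 18, 0 and 16 cells, 3 or 4 in 7, 3 and 5 cells, and 5 or 6 in 23, 3 and 7 cells, so more cells lay near the osteoclast limit. In each library 1 cell met both the C1q and the osteoclast limits. Cells with osteoclast genes were deep, with a median of 34787, 37176 and 29710.0 UMIs, against 19264, 10402 and 9293 in cells with C1q genes. They were 36.7%, 35.7% and 12.6% of the arm's cells but gave 55.1%, 57.4% and 24.0% of its UMIs. A sum over the arm therefore leans on them at E16.5 and P0.

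**Figure D3:**
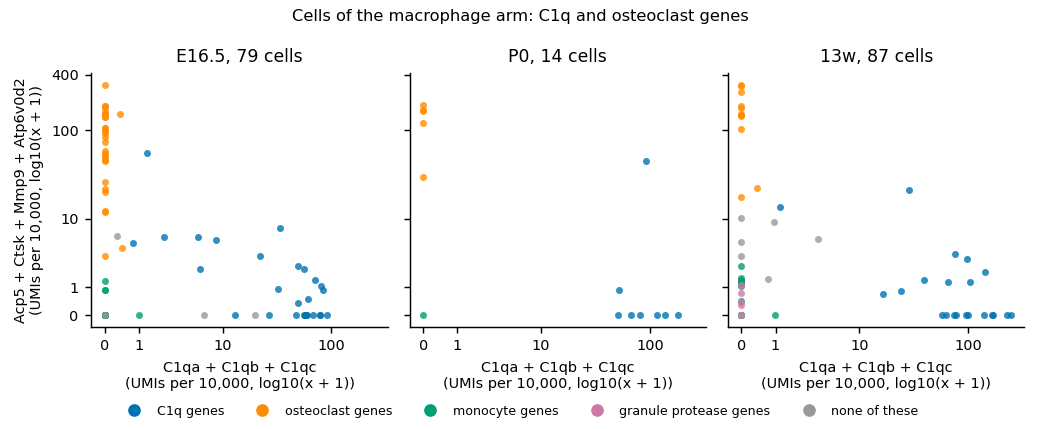
Each point is a cell of the macrophage arm, with C1qa, C1qb and C1qc summed on the horizontal axis and Acp5, Ctsk, Mmp9 and Atp6v0d2 on the vertical axis, both as UMIs per 10000 spaced as log10 of the value plus 1. Cells over the C1q limit were assigned first, so cells with osteoclast genes lie at or near 0 on the horizontal axis by the cut. Part of the cells with C1q genes lie above 0 on the vertical axis, and Acp5 was read in 14 of the 28 cells with C1q genes at E16.5.

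C1q, the first component of the classical complement pathway, led the first group. The windows of C1qb and C1qc are shown because the 2 genes chose the group together. They are RefSeq promoter windows of GRCm38.p6 on the minus strand, 250 bases before each start, at chr4:136886201-136886450 for C1qb and chr4:136892915-136893164 for C1qc. Capitals mark GAGGAA, the core letters of sites for Spi1 (PU.1), a master factor of macrophages, on either strand.
C1qb: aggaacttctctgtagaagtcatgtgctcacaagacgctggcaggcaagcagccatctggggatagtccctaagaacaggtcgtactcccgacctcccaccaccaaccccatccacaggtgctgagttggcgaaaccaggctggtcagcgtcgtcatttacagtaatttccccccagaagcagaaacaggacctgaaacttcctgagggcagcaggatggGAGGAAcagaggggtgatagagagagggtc
C1qc: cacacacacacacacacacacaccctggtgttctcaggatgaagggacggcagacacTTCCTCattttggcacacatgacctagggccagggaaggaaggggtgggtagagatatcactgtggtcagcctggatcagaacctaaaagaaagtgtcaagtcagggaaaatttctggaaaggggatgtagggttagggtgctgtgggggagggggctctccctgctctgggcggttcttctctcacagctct
Each window held 1 match, and 23.3% of the 32851 windows held one. Spi1 itself was at 419.9, 402 and 506 CPM in cells with C1q genes at E16.5, P0 and 13w, and at 2.12, 0.192 and 6.39 CPM in the other kept cells.

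Cells with C1q genes carried some of the genes of tissue-resident macrophages. C1qa, which did not set the group but belongs to the rule of the arm, was at 1109, 3209 and 2637 CPM at E16.5, P0 and 13w. Pf4, a chemokine of resident macrophages and platelets, was at 1764, 3582 and 1504 CPM and in 25 of 28, 8 of 8 and 17 of 21 cells. Ms4a7, a membrane gene of resident macrophages, was in 25, 8 and 18 cells, and in 0 of 34 cells with monocyte genes at 13w and 1 of 18 at E16.5. Mrc1, the mannose receptor that takes up glycoproteins, was at 702, 1374 and 188 CPM. Trem2, a lipid receptor of phagocytes, was at 225, 491 and 397 CPM. Other resident genes were read in few cells, Cd163, a scavenger receptor for haemoglobin, in 1, 3 and 4 cells and Clec10a, a lectin, in 5, 1 and 2, while Cd209f had 0 UMIs. The microglial genes P2ry12 and Sall1 were read in 8, 1 and 3 cells and in 0 cells.

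Markers of the synovial lining and of perivascular macrophages were found in part of the group. Lyve1, a hyaluronan receptor of perivascular macrophages, was in 6 of 28, 2 of 8 and 7 of 21 cells, at 168, 157 and 721 CPM. Timd4, which binds the lipid of dying cells, was in 1, 0 and 4 cells. Vsig4, a complement receptor of lining macrophages, was in 3 cells at 13w and had 0 UMIs at the younger stages. Most of its UMIs at 13w, 81.2%, came from 1 cell.

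Cells with osteoclast genes carried the resorption programme beyond the 6 genes of the cut. Ctsk, the collagen-degrading cathepsin of osteoclasts, was not used in any rule and stood at 4524, 6574 and 7071 CPM at E16.5, P0 and 13w, in 27 of 29, 5 of 5 and 10 of 11 cells. In cells with C1q genes it was at 207, 314 and 136 CPM and in the other kept cells at 84.9, 137 and 263 CPM. Nfatc1, the master factor of osteoclast formation, was in 29, 4 and 11 of these cells at 350.4, 546 and 383 CPM. Tnfrsf11a, which encodes the receptor RANK, was at 66.5, 155 and 90.5 CPM there and at 91.6, 137 and 52.2 CPM in cells with C1q genes, so both groups carried it. Car2, which makes protons for acid secretion, was at 343, 101 and 175 CPM. Calcr, the calcitonin receptor of mature osteoclasts, had UMIs in 3 cells at E16.5 and none at P0 or 13w.

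Genes of acid secretion and of the respiratory chain were also high in these cells. The 23 genes for subunits of the vacuolar proton pump (symbols starting Atp6v, of which Atp6v0d2 was used in the cut) took 1.17%, 1.40% and 1.36% of their UMIs at E16.5, P0 and 13w. They took 0.475%, 0.557% and 0.329% in cells with C1q genes and 0.161%, 0.171% and 0.185% in the other kept cells. The 81 genes of the respiratory chain and the mitochondrial ATP synthase took 5.49%, 5.42% and 6.12% of UMIs in cells with osteoclast genes, against 2.80%, 2.40% and 1.93% in the other kept cells. Lyz2, the lysozyme of macrophages, was in 3 of 29, 0 of 5 and 3 of 11 of these cells, at 9.06, 0 and 30.2 CPM.

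Cells with monocyte genes made up 22.8%, 7.14% and 39.1% of the arm. Plac8, a gene of inflammatory monocytes that set no group, was at 1589 CPM in 33 of 34 of these cells at 13w and 2054 CPM in 17 of 18 at E16.5. Among cells with C1q genes 0 of 21 held it at 13w and 2 of 28 at E16.5. Lyz2 was at 13385 CPM at 13w and 16511 CPM at E16.5 in cells with monocyte genes. Ifitm3, an interferon-induced membrane gene, was at 2125 CPM at 13w and 2886 CPM at E16.5, and the single P0 cell had 52 UMIs of it. Chil3, a chitinase-like protein of inflammatory monocytes, was in 17 of 34 cells at 13w and in 0 of 18 at E16.5. The neutrophil genes S100a8 and S100a9 are limited by the rule, and the other kept cells of the 13w library held all 10 neutrophil markers at a summed 3896 CPM.

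The 14 cells with granule protease genes came from the 13w library alone. Mpo and Elane, peroxidase and elastase of early granules, chose them. Prtn3 and Ctsg, 2 further proteases of the same granules that set no rule, were in all 14 cells, Prtn3 at 4144 CPM and Ctsg at 2388 CPM. All 14 held Mki67, a gene of dividing cells, at 287 CPM. After each cell had been thinned to 3000 UMIs, 10 of 14 still held it (71.4%, 41.9 to 91.6), against 2 of 19 cells with C1q genes at 13w (10.5%, 1.30 to 33.1). Their median depth was 25851 UMIs, against 9293 in the cells with C1q genes. Of these 14 cells, 5 were among those with the highest doublet scores of the library, a set that held 6.81% of its kept cells. The part of these 5 cells in the result was not tested.

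**Figure D4:**
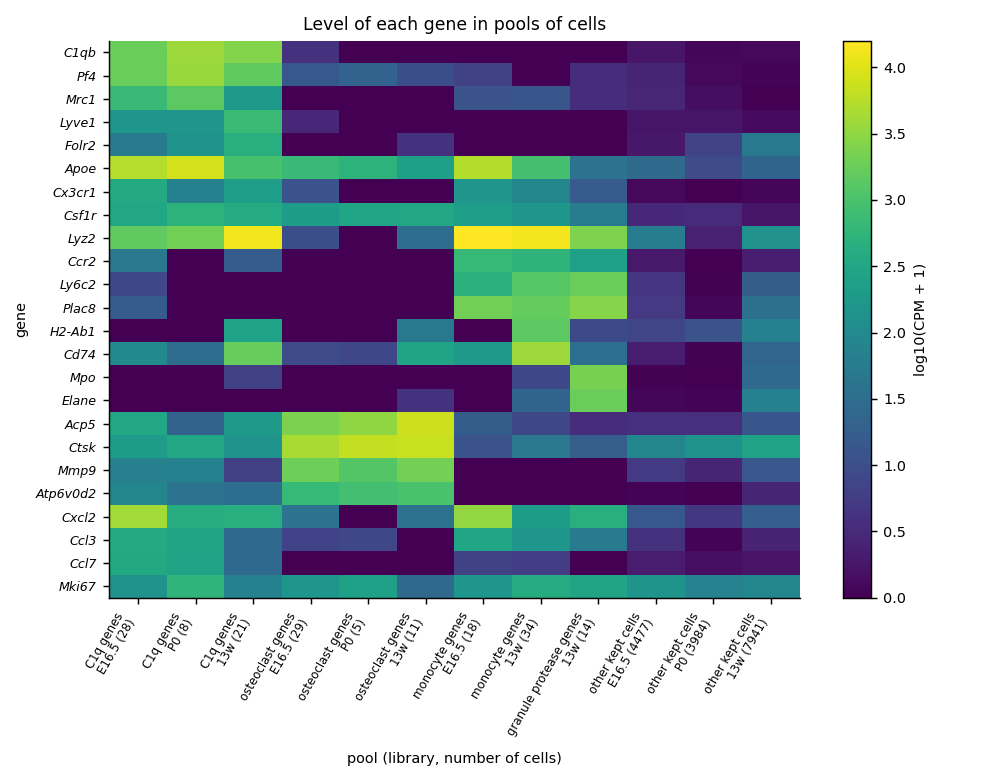
Level of 24 genes, as log10 of CPM plus 1, in pools of at least 5 cells (columns, with library and number of cells) and in the other kept cells. C1qb and the osteoclast genes are brightest in their own columns, Ly6c2 and Plac8 are bright in the monocyte and the granule protease columns, H2-Ab1 is dark at E16.5 and P0 in every pool of the arm, and Cxcl2 is brightest in the C1q and monocyte columns of E16.5.

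Haemoglobin transcripts marked a part of the fetal macrophage arm. At E16.5, 14 of 79 cells of the arm held at least 50 UMIs of Hba-a1, Hba-a2, Hbb-bs and Hbb-bt (17.7%, 10.0 to 27.9), against 28 of 4477 other kept cells (0.625%, 0.416 to 0.903). Of the 28 cells with C1q genes, 9 passed this limit, and of the 29 cells with osteoclast genes none did. Among the 9, haemoglobin made up 0.256% to 37.0% of the cell's UMIs, and C1qb plus C1qc had 4 to 119 UMIs. Further haemoglobin came from 1 cell with monocyte genes and from the 4 unassigned cells, of which 1 had 86.0% haemoglobin. At P0 1 of 14 cells passed the limit, a cell with C1q genes that held 1607 haemoglobin and 105 Hmox1 UMIs. At 13w none of 87 cells did, and the whole arm held 1 haemoglobin UMI.

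Another erythroid marker was low in the same cells. Alas2, which starts haem synthesis in red cells, had 0 to 13 UMIs in the 9 cells with C1q genes. Hmox1, which breaks haem down, had 0 to 12 UMIs in them. In the E16.5 library 21.7% of the other kept cells held at least 1 haemoglobin UMI at a median depth of 17393 UMIs, and 57.1% of cells with C1q genes did at 19264 UMIs. Whether this RNA belonged to the cells themselves was not tested. Without these cells 358 genes were higher and 146 lower in the arm at 13w, and 507 higher and 470 lower in cells with C1q genes, by the rules given next, and 118 of 138 and 333 of 381 lower genes were still called. Values without them are given below for some lists and genes.

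The arm as a whole was compared between 13w and E16.5, which have 87 and 79 cells. A gene was measured with at least 50 CPM and a UMI in at least 5 cells of the higher pool, and called where its level differed by 2-fold or more and the counting interval excluded a ratio of 1. Of 3107 measured genes, 348 were higher at 13w (11.2%) and 138 lower (4.44%), 15.6% in either direction, and the median log2 ratio was -0.14. A gene measured through 1 pool alone had to differ, so these counts describe and do not test. With mast cells absent at 13w and P0 at 14 cells, no other pair of stages was compared in this way.

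MHC class II genes, which present antigen to T helper cells, were higher in the adult arm. Of 19 listed class II and dendritic genes 7 were measured, and all 7 were higher at 13w, beside 11.2% of all measured genes of the arm. They were H2-Aa, H2-Ab1, H2-Eb1, H2-DMa, H2-DMb1, Cd74 and Irf8, with a median log2 ratio of 4.84. H2-Aa, H2-Ab1 and H2-Eb1 were measured through the 13w pool alone and could only be called higher. The count and the median thus follow in part from the filter. H2-Aa was at 518 CPM at 13w and at 0 UMIs in the 79 cells of E16.5 and the 14 of P0, at least 311-fold higher at 13w than the level of 3 UMIs per pool. H2-Ab1 was at 523 CPM at 13w, against 0 UMIs at E16.5, at least 314-fold higher. H2-Eb1 was at 536 CPM at 13w and 1.11 CPM, 2 UMIs in 1 cell, at E16.5. Cd74, the invariant chain, was at 1574 CPM at 13w and 55.0 CPM at E16.5, a log2 ratio of 4.84 (4.55 to 5.15).

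Few cells carried the class II genes. At 13w, 10 of 34 cells with monocyte genes held at least 10 UMIs of H2-Aa, H2-Ab1 and H2-Eb1, and they held 99.3% of that group's UMIs of the 3 genes. All 10 had Ccr2, 5 had Ly6c2 and 5 had Cd209a, a lectin of monocyte-derived dendritic cells. Among cells with C1q genes at 13w 2 of 21 passed the same limit, and 16 had none. There H2-Ab1 was called higher, but 1 cell held 67.3% of its UMIs and the call was lost without the cells with the highest doublet scores. The other kept cells of 13w held H2-Ab1 at 69.0 CPM and H2-Aa at 7.45 CPM. Without the 18 cells of the 13w library rich in skeletal collagen all 7 genes were still higher.

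Monocyte and granule genes were higher in the adult arm as well. Of 12 measured genes of the monocyte list 9 were higher and 0 lower at 13w, with a median log2 ratio of 2.80. Chil3 and Lyz1 among them had 0 UMIs at E16.5, were measured through the 13w pool alone and could only be called higher. Ly6c2 was at 877 CPM at 13w and 52.2 CPM at E16.5, a log2 ratio of 4.07 (3.77 to 4.39). The 14 cells with granule protease genes held 677 of its UMIs at 13w, at 1733 CPM. Of these 14 cells, 13 also met the monocyte limit. Ccr2, the receptor that draws monocytes to Ccl2, was at 236 CPM at 13w and 80.0 CPM at E16.5. Mpo was at 609 CPM and Elane at 497 CPM at 13w, against 0 UMIs at E16.5, at least 365-fold and 298-fold higher. Prtn3 was at 1234 CPM at 13w, against 2.22 CPM at E16.5. Slpi, an inhibitor of elastase, was at 286 CPM at 13w and 1.67 CPM at E16.5. Lyz1 was at 146 CPM at 13w, against 0 UMIs at E16.5, with 77.7% of its UMIs in 1 cell. Without the 14 cells with granule protease genes 8 of 12 monocyte genes were still higher, and Chil3 was at 496 CPM at 13w.

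Of 10 measured osteoclast genes 5 were lower in the adult arm and 5 were not called, and cells with osteoclast genes made up 12.6% of it at 13w and 36.7% at E16.5. The lower genes were Mmp9, Dcstamp, Tnfrsf11a, Car2 and Ckb, and the median log2 ratio of the 10 was -0.96. Without the 14 cells with granule protease genes 2 of 10 were lower. Mmp9, a gelatinase of resorbing cells, was at 505 CPM at 13w and 1047 CPM at E16.5. Within cells with osteoclast genes it was at 2105 CPM in 11 cells at 13w and 1859.9 CPM in 29 cells at E16.5. Acp5, an acid phosphatase of osteoclasts, was there at 7542 CPM at 13w and 2327 CPM at E16.5. A pool of 11 cells was too small for a contrast by the rule used here, and these values stand side by side.

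Part of the chemokine genes were lower in the adult arm. Of 12 measured members of the chemokine and cytokine list 8 were lower and 0 higher at 13w, with a median log2 ratio of -1.26. Cxcl2, which draws neutrophils, was at 265 CPM in 23 of 87 cells at 13w, and 1674 CPM in 44 of 79 cells at E16.5. Ccl7, a ligand for monocyte receptors, was at 5.06 CPM at 13w and 113 CPM at E16.5, a log2 ratio of -4.48 (-5.81 to -3.41). Without the E16.5 cells rich in haemoglobin, 4 of 10 measured genes of the list were lower, and Ccl2 stood at a log2 ratio of -1.19 in place of -2.32. The 10 genes with the largest ratios in this direction were Ccl7, Cxcl1, Cxcl10, Mrc1, Tfrc, Cxcl2, Apoe, Ccl2, Jdp2 and Maf, with log2 ratios of -4.48 to -2.13. Jdp2, a transcription factor of osteoclast formation, was at 112 CPM at 13w and 551 CPM at E16.5.

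Within cells with C1q genes, 21 at 13w and 28 at E16.5, 483 of 3387 measured genes were higher at 13w (14.3%) and 381 lower (11.2%), 25.5% in either direction. The median log2 ratio over all measured genes was -0.12. The group was chosen after its values were seen, so this too is a description. Cells with C1q genes that also met the monocyte limit numbered 8 of the 28 at E16.5 and 1 of the 21 at 13w. The part of these cells in the differences given below was not tested. At 13w the group had a median of 9293 UMIs per cell, against 19264 at E16.5. The sets with the highest doublet scores held 6 of the 21 cells at 13w and 2 of the 28 at E16.5. These sets were 6.81% and 3.81% of the kept cells of the 2 libraries. Without them 341 of the 483 higher and 237 of the 381 lower genes were still called.

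Chemokine and cytokine genes were lower in adult cells with C1q genes. Of 15 measured genes 13 were lower at 13w, 1 was higher, and the median log2 ratio was -2.86. Cxcl2 was at 449 CPM in 8 of 21 cells at 13w, and at 4071 CPM in 20 of 28 cells at E16.5. Cxcl10, an interferon-induced chemokine, was at 15.7 CPM at 13w and 759 CPM at E16.5, a log2 ratio of -5.60 (-7.88 to -4.04). Ccl3, a chemokine that draws monocytes, was at 26.1 CPM at 13w and 375 CPM at E16.5, a log2 ratio of -3.84 (-5.48 to -2.60).

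Single cells weighed on these sums. At 13w 1 cell held 79.1% of the Cxcl2 UMIs, and at E16.5 the highest cell held 18.8%. The median cell had 0 Cxcl2 UMIs at 13w and 11.4 per 10000 at E16.5. Ccl12 had 0 UMIs at 13w and 123 CPM in 10 of 28 cells at E16.5. At P0 the group of 8 cells held Cxcl2 at 412 CPM, Ccl3 at 285 CPM and Cxcl10 at 19.6 CPM. Cxcl16, a membrane-bound chemokine, went against the list at 376 CPM at 13w and 89.9 CPM at E16.5.

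The 9 cells rich in haemoglobin bore on the size of these ratios. Of 13 genes measured without them, 10 were lower and 1 higher at 13w. Cxcl2 was at a log2 ratio of -2.31 and Ccl3 at -3.64. Tnf, the tumour necrosis factor, was no longer called, at 99.2 CPM at 13w and 103 CPM at E16.5, in place of 319.7 CPM with all cells. After thinning each cell to 3000 UMIs, Cxcl2 was in 6 of 19 cells at 13w (31.6%, 12.6 to 56.6) and 18 of 28 at E16.5 (64.3%, 44.1 to 81.4). Chondrocytes, taken as other kept cells with at least 3 Col9a1 UMIs per 10000 and expected to lack it, held it in 0.767% of thinned cells at 13w and 0.303% at E16.5. Their median depths before thinning were 23612 and 40312 UMIs at 13w and E16.5.

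**Figure D5:**
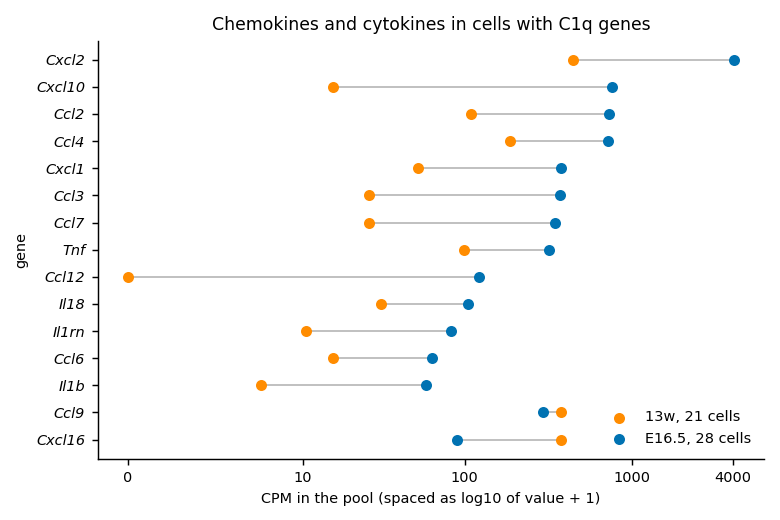
Level of 15 chemokine and cytokine genes in cells with C1q genes, as CPM of the pool spaced as log10 of the value plus 1, at 13w (orange) and E16.5 (blue). For 13 genes the 13w point lies to the left of the E16.5 point, while Cxcl16 and Ccl9 lie to its right.

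Genes of resident macrophages were called in both directions. Of 10 measured genes 4 were higher and 2 lower at 13w, with a median log2 ratio of 0.06. Over all measured genes of the group the shares were 14.3% higher and 11.2% lower. Lyve1 was at 721 CPM in 7 of 21 cells at 13w and 168 CPM in 6 of 28 cells at E16.5, and 1 cell held 47.1% of the 13w UMIs. Selenop, a selenium carrier, was at 982 CPM at 13w and 344 CPM at E16.5, and Cbr2, a carbonyl reductase, at 120.1 CPM at 13w and 20.7 CPM at E16.5. Mrc1 was lower at 13w, at 188 CPM against 702 CPM at E16.5, as was Stab1, a scavenger receptor, at 99.2 CPM at 13w and 268 CPM at E16.5. Both of these calls were lost without the cells rich in haemoglobin, where E16.5 stood at 353 CPM for Mrc1 and 195 CPM for Stab1.

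Folr2, a folate receptor of resident macrophages, was also read outside the members. It was at 444 CPM in 17 of 21 cells with C1q genes at 13w, and 53.6 CPM in 9 of 28 at E16.5. After thinning, 12 of 19 cells at 13w held it (63.2%, 38.4 to 83.7) and 2 of 28 at E16.5 (7.14%, 0.877 to 23.5). Chondrocytes of the same libraries held it in 12.1% of thinned cells at 13w and 0.505% at E16.5, and the other kept cells were at 48.9 CPM at 13w and 0.842 CPM at E16.5. The level in chondrocytes was thus itself higher at 13w, and its part in the difference was not tested.

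C1qb and C1qc set this group and C1qa belongs to the rule of the arm, so the complement counts below are a description in which these 3 genes are included. Of 9 measured complement genes 4 were higher at 13w and 0 lower, with a median log2 ratio of 0.94. Among them were C1qa, and Itgam and Itgb2, which form complement receptor CR3. C1qa was at 2637 CPM at 13w and 1109 CPM at E16.5. Lyz2 was at 12699 CPM at 13w and 1512 CPM at E16.5, and the other kept cells were at 133 CPM at 13w and 59.2 CPM at E16.5.

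Part of the genes of dividing cells were lower in the adult group. Of 15 measured cell cycle genes 8 were lower, 7 not called and 0 higher at 13w, with a median log2 ratio of -1.01, and after thinning 2 of 9 were lower. Top2a was at 78.3 CPM in 3 of 21 cells at 13w, and 221 CPM in 14 of 28 at E16.5. Mki67 was in 2 of 19 thinned cells at 13w and 5 of 28 at E16.5, 10.5% (1.30 to 33.1) at 13w and 17.9% (6.06 to 36.9) at E16.5, with intervals that overlap. Over the whole arm, which at 13w includes the cells with granule protease genes, 0 of 15 cell cycle genes were called in either direction.

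Uptake and lysosome genes were called in both directions. Of 17 measured genes 5 were higher and 2 lower at 13w, with a median log2 ratio of 0.19. Over all measured genes of the group 14.3% were higher and 11.2% lower, and the lower count of the list is near that share. Cd36, a scavenger receptor for lipids, was at 360.3 CPM at 13w and 22.5 CPM at E16.5, with 56.5% of the 13w UMIs in 1 cell. Apoe, which carries lipids out of cells, was lower at 945 CPM in 9 of 21 cells at 13w, against 5400.4 CPM in 27 of 28 cells at E16.5. At P0 it was at 8087 CPM in 8 of 8 cells. Tfrc, the transferrin receptor, was at 15.7 CPM at 13w and 154 CPM at E16.5, and 1 cell held 50.6% of its E16.5 UMIs.

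The class I MHC gene H2-D1 was at 1817 CPM at 13w and 377 CPM at E16.5, while the other kept cells were at 313 CPM at 13w and 10.7 CPM at E16.5. The H2 genes share sequence, so their split is uncertain. Of 6 measured interferon and class I genes 2 were higher and Ifitm3 was lower, beside 14.3% higher and 11.2% lower over all measured genes of the group. Of the early response and heat shock genes, 8 of 13 were higher in cells with C1q genes and 10 of 13 over the whole arm, with median log2 ratios of 1.19 and 1.71. Hspa1a was at 600.5 CPM at 13w and 128 CPM at E16.5, and the other kept cells of both libraries were at 131 CPM at 13w and 20.5 CPM at E16.5. Such genes are known to respond to tissue digestion, and with 1 library per age handling and age cannot be told apart.

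Several genes with the largest ratios in this group were also read in the other kept cells. Highest at 13w over E16.5, with log2 ratios of 5.35 to 8.89, were Tppp3, Col10a1, Aqp1, Fxyd2, Gda, Tcim, H2-Q7, H2-Ab1, Hspb1 and Crip1. Col10a1, a collagen of hypertrophic chondrocytes, was at 2522 CPM at 13w and 12.1 CPM at E16.5, but was read in 5 of 21 cells and 60.7% of its 13w UMIs lay in 1 cell. Tppp3, a tubulin-binding protein, was at 820 CPM in 16 of 21 cells at 13w and 1.73 CPM in 1 of 28 at E16.5, and the other kept cells were at 265 CPM at 13w and 52.7 CPM at E16.5. Aqp1, a water channel, was at 616 CPM in 17 of 21 cells at 13w and 3.46 CPM at E16.5, and Fxyd2, which tunes the sodium pump, at 1613 CPM at 13w and 15.6 CPM at E16.5. Both were also higher at 13w in the other kept cells, Aqp1 at 188 CPM at 13w and 24.9 CPM at E16.5, Fxyd2 at 117 and 5.37 CPM. Gda, guanine deaminase, was at 151 CPM in 12 of 21 cells at 13w and 1.73 CPM at E16.5, and its level in the other kept cells was 4.74 CPM at 13w and 1.66 CPM at E16.5. H2-Q7 rested on 1 cell with 73.9% of its 13w UMIs.

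Skeletal transcripts stood higher in the adult arm. The 8 fibroblast and surface markers summed to 218, 901 and 3708 CPM in the arm, while the other kept cells were at 5277, 10013 and 32592 CPM. Cells rich in skeletal collagen, with at least 20 UMIs of Col1a1, Col1a2 and Col3a1 per 10000, numbered 3 of 79, 1 of 14 and 18 of 87. Of 12 measured growth factor and matrix genes 8 were higher at 13w, among them Spp1 and Fn1, and 2 were lower, Igf2 and Mmp9. At 13w Spp1 was at 572 CPM in the arm and 7295 CPM in the other kept cells, and Fn1 at 505 CPM in the arm and 3765 CPM in the other kept cells. Without the cells rich in skeletal collagen 3 of 7 measured genes of that list were higher, and whether the rest came from the members was not tested.

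Lowest at 13w against E16.5 in cells with C1q genes, with log2 ratios of -5.60 to -3.18, were Cxcl10, Fcrls, Syce2, Ccl3, Ccl7, Thbs1, Fcgr1, Gpnmb, Tfrc and Cxcl2. Fcrls, an Fc receptor-like gene known from mouse microglia, was at 10.4 CPM in 1 of 21 cells at 13w and 257 CPM in 17 of 28 at E16.5, a log2 ratio of -4.62 (-7.68 to -2.75). Fcgr1, the high-affinity receptor for IgG, was at 10.4 CPM in 2 of 21 cells at 13w and 107 CPM in 20 of 28 at E16.5. Thbs1, a matrix protein that binds Cd36, had 0 UMIs at 13w and 164 CPM at E16.5, at least 10.5-fold lower at 13w. The other kept cells held Thbs1 at 63.4 CPM at 13w and 125 CPM at E16.5.

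Ligands of receptors on these cells were read in the other kept cells, whose mix of cell types differs between libraries. Csf1, the main ligand of Csf1r, was at 7.46, 7.44 and 8.95 CPM there at E16.5, P0 and 13w, and Il34, the other ligand, at 0.0710, 0.587 and 11.5 CPM. Kitl, the ligand of Kit, was at 5.85, 3.77 and 16.3 CPM, and Cx3cl1, the ligand of Cx3cr1, at 0.193, 0.288 and 10.8 CPM. Il34, Kitl and Cx3cl1 stood highest at 13w. Csf1 itself was at 183 CPM in the E16.5 mast cells, with 21 UMIs in 2 of 6 cells, 17 of them in 1 cell. Cxcl12, which holds blood-forming cells in marrow, was at 40.6, 6.77 and 2.61 CPM in the other kept cells.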

How the data were processed

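Single-cell 3′ RNA libraries (10x Genomics), 1 per age, were read from deposited matrices that hold raw UMI counts. The matrices name Cell Ranger 6.1.2, per the file headers, and the build was GRCm39, per the submitters' processing notes. The deposited counts cover 5458, 4853 and 8899 barcodes with 103827875, 98486931 and 115836876 UMIs at E16.5, P0 and 13w. Cells were kept with 500 or more genes and no more than 10% of UMIs from mitochondrial genes. The members and gene lists were chosen with earlier results of these data known.

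Counts were summed over cells of a pool and divided by the pool's total (CPM). Ratios carry exact conditional binomial 95% intervals, which hold counting error only. Contrasts were run where both pools had at least 20 cells. A gene with 0 UMIs in 1 pool was set to 3 counts per pool, and its ratio is a bound that leaves out the counting error of the other pool. Genes named beyond the lists were the 10 with the largest ratio in each direction with at least 100 CPM in the higher pool, a UMI in at least 5 of its cells and no higher CPM in the other kept cells, leaving out mitochondrial, ribosomal, haemoglobin, sex-chromosome marker, immunoglobulin and predicted genes. Scrublet in scanpy 1.11.5 marked 0.241%, 0.175% and 0.0498% of kept cells by its own threshold and so had not worked. No cell was removed for it, and the cells with the highest scores were left out in an alternative. The size of that set was fixed by an assumed doublet rate of 0.8% per 1000 kept cells. It is a ranking by score and not a set of detected doublets.

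Tools were Python 3.11.15, numpy 2.4.6, scipy 1.17.1, pandas 2.3.3, matplotlib 3.10.9, R 4.3.3 and edgeR 4.0.16, the last for TMM factors alone. Alternatives changed membership, doublets, the mitochondrial limit, scaling, the CPM limit, cell weights and depth, and further ones chosen after seeing the data left out cells rich in skeletal collagen or haemoglobin or cells with granule protease genes. No column was left unmapped. Some genes of the lists count in the totals and are not reported here by name.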

Additional observations from a re-analysis of the deposited data

How the results depend on the processing

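The mast share kept its order of size over the ages with the highest doublet scores left out, a mitochondrial limit of 5% or stricter membership, with 0 mast cells at 13w in each. With the highest doublet scores left out or with stricter membership, the exact intervals at E16.5 and 13w overlapped. Stricter membership, at least 3 of the 4 genes, gave a macrophage share of 0.811%, 0.200% and 0.523% at E16.5, P0 and 13w, and 265 lower genes in the arm at 13w. By that rule the exact interval of the share at 13w overlapped those at E16.5 and P0. A minimum of 200 CPM, which tests fewer genes, gave 109 higher and 35 lower genes in the arm and 138 higher and 102 lower in cells with C1q genes. No limit on CPM, which tests more, gave 1547 higher and 507 lower genes in the arm and 852 higher in cells with C1q genes. Thinning each cell to 3000 UMIs gave 237 lower genes in the arm, and 244 higher and 183 lower in cells with C1q genes. The cause of the changes with stricter membership and thinning was not tested. After thinning H2-Q7 reversed to a log2 ratio of -0.026 in cells with C1q genes. Of 440 alternative values for the 40 named log2 ratios, 355 lay within the counting interval of the reported value and 84 lay outside it in the same direction. TMM factors gave 324 higher and 152 lower genes in the arm, and 447 higher and 466 lower in cells with C1q genes.

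No paired analysis was possible because each age is 1 library. Mast cells, P0 and the other groups of the arm were not contrasted, since at least 1 pool of each pair held fewer than 20 cells or the groups were set side by side alone. Depth limits the rare genes, and 7 mast cells limit every statement on that arm.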
